A study of Mus musculus with 69 samples.

Results

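Transcripts of 7 cholesterol synthesis genes, Hmgcs1, Idi1, Fdft1, Sqle, Lss, Cyp51 and Insig1, were followed in mouse embryonic stem cells (ESCs) whose histone H3.3 carries arginine in place of lysine 27 (H3.3K27R). These genes are targets of the transcription factor SREBP2, and they were taken by symbol as 7 of the 16263 rows of the mRNA-seq count table. The mRNA-seq data held 2 libraries of wild-type (WT) J1 cells and 2 each of the H3.3K27R clones Mut18 and Mut43, and ATAC-seq, an assay of open chromatin, gave 1 peak list for each of 6 libraries laid out in the same way. All lines had the 129S4/SvJae background, and the clones descend from J1 after CRISPR-Cas9 editing of H3f3a and H3f3b, the genes encoding H3.3. Each mutant line is a single clone, WT is the parental line, and no mock-edited clone was analysed here. The cells had grown on feeder cells and were passaged without them before harvest. Replicates of a line were biological replicates per the authors, so the spread between them is that of parallel cultures of 1 line. A difference that the clones share against WT cannot be told apart from one that arose during cloning.

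Cells build cholesterol from acetyl-CoA. The mevalonate arm makes isoprenoid units and joins them into farnesyl diphosphate, and the sterol arm turns farnesyl diphosphate into squalene, closes it into lanosterol and trims lanosterol to cholesterol. When sterols run low in the endoplasmic reticulum, SCAP escorts SREBP2 to the Golgi, where proteases release its active part, and the genes of both arms are transcribed together. INSIG1 holds the SCAP-SREBP complex back when sterols are plentiful, and its own gene is an SREBP2 target. In ESCs, as in other dividing cells, the pathway supplies membrane cholesterol and the isoprenoids attached to proteins.

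All 7 genes were matched by symbol in the GENCODE annotation of GRCm38, the build that the authors call mm10. Hmgcs1 lies on chromosome 13 (119690379 to 119708260, plus strand), Idi1 also on chromosome 13 (8885501 to 8892451, plus strand), and Fdft1 on chromosome 14 (63145150 to 63179578, minus strand). Sqle lies on chromosome 15 (59315077 to 59331192, plus strand), Lss on chromosome 10 (76531588 to 76557138, plus strand), Cyp51 on chromosome 5 (4081145 to 4104746, minus strand) and Insig1 on chromosome 5 (28071363 to 28078662, plus strand). The RefSeq promoter table (GRCm38.p6) held 5 of the 7, all but Sqle and Fdft1. The stretches before the start site are shown for 3 of them because the outcome differed between these genes, with Hmgcs1 not called, Lss higher and Cyp51 lower in the mutants, while ATAC-seq found a peak over each in every library. Each is written 5′ to 3′ on the gene's own strand and ends at the first annotated exon of either annotation, with motif matches in capitals.
Hmgcs1, chr13:119690101-119690350, plus strand: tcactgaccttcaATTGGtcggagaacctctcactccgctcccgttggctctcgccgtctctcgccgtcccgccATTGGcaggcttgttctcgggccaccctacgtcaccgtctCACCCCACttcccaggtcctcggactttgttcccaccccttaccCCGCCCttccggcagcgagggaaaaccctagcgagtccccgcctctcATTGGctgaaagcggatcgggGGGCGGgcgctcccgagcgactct
Lss, chr10:76531355-76531587, plus strand: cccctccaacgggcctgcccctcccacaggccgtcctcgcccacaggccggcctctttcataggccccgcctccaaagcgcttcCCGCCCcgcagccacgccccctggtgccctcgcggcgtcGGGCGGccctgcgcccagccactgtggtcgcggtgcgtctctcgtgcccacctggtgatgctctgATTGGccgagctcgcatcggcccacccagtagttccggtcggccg
Cyp51, chr5:4104747-4104947, minus strand: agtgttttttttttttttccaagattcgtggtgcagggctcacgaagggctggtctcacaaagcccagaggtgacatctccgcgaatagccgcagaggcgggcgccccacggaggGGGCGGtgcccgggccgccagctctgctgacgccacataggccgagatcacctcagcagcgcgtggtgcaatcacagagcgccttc

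Short motifs were searched on both strands in the 250 bases before the RefSeq start. They were the core of a sterol regulatory element (SRE core, CACNCCAC), the box bound by NF-Y (CCAAT), the box bound by Sp1 (GGGCGG) and the E-box (CACGTG), and no matches overlapped each other in the 5 promoters. An SRE core stood 136 bases before the start of Hmgcs1 and 9 bases before that of Insig1, and these letters occurred in 5.29% of 32851 RefSeq promoters of the same length. All 5 promoters held at least 1 NF-Y box and at least 1 Sp1 box, which occurred in 33.8% and 32.7% of promoters. The 5 held 51.2% to 73.6% G and C, and the 32851 were not matched to them for base content, expression or openness. Hmgcs1 held 3 NF-Y boxes and 2 Sp1 boxes, Lss 1 and 2, Idi1 2 and 1, Cyp51 1 and 1, and Insig1 1 and 3. The E-box was found in Insig1 alone among the 5, against 6.02% of promoters. The NF-Y box of Cyp51, 29 bases before the RefSeq start, lies within the first GENCODE exon and so past the end of the stretch shown. The SRE core of Insig1 and every Idi1 match likewise lie past the GENCODE start of their gene, and so are upstream by the RefSeq start only. These matches describe letters and were not tested as binding sites.

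The count table summed to between 14992756 and 15143998 reads per library, so that depth was nearly equal. Whether the libraries had been thinned to a common depth is not given in the sources used here. Replicates of 1 line differed by a chi-square of 1.81 to 3.06 per gene, libraries of different clones by 1.94 to 2.94, and WT and mutant libraries by 18.8 to 25.2. Each library was counted as a sample of its own, although both WT libraries came from 1 line. The p-values therefore do not measure how WT lines would vary. H3f3a gave 10510 and 10937 normalized counts for WT and 8436 to 9560 for the mutants. It was lower by 0.23 on the log2 scale (adjusted p = 0.00016, edgeR quasi-likelihood test). H3f3b, on chromosome 11, had 12378 and 12398 against 11655 to 13556 (log2 fold change 0.03, adjusted p = 0.637). This pooled value hides a split, since both Mut18 libraries (11655, 12026) lay below WT while both Mut43 libraries (13556, 13386) lay above it. By the same test with the 3 lines as groups, H3f3b was called higher in Mut43 than in WT (log2 fold change 0.12, adjusted p = 0.0162). Mut43 also exceeded Mut18 (0.19, adjusted p = 0.0402), and Mut18 was not called against WT (-0.07, adjusted p = 0.21). Transcript level does not report the edited codon. The ESC markers Pou5f1, Nanog and Sox2 had at least 4583 normalized counts in every library. The 8 ESC markers summed to 54905 to 56990 in WT and 62106 to 65580 in the mutants, and 7 of them were called higher and Pou5f1 lower, where 23.5% and 24.5% of all tested genes were called. Pou5f1 had 12092 and 12814 normalized counts in WT and 10006 to 10618 in the mutants (log2 fold change -0.27, adjusted p = 4.22e-06), while Zfp42 rose by 0.72 on the log2 scale, Sox2 by 0.22 and Nanog by 0.20. The 9 fibroblast markers, which mark the kind of cell used as feeder, summed to 4153 in WT replicate 1, 2900 in WT replicate 2 and 1943 to 2560 in the mutants, and 6 of the 8 tested were lower in the mutants and 2 not called. Among these, Col3a1 had 843 and 257 normalized counts in WT and 98 to 149 in the mutants, Postn 288 and 111 against 38 to 53, and Dcn 39 and 16 against 4 to 11, and all 3 passed 2-fold. In such bulk samples fewer cells of a type and less RNA per cell cannot be told apart. Lum, one of their defining genes, was at 0 in 3 libraries. It had 17 normalized counts in WT replicate 1, 2 in Mut18 replicate 1 and 5.09 in Mut43 replicate 1. Of 6 extraembryonic endoderm markers in the table the sum was 77 to 106 in WT and 79 to 110 in the mutants. Of the 4 tested, 1 was called higher, 1 lower and 2 not. Foxa2 was lower and alone passed 2-fold, at 11 and 15 counts in WT and 0 to 2 in the mutants. Gata4 was higher, at 44 and 37 counts in WT and 53 to 64 in the mutants (log2 fold change 0.50, adjusted p = 0.0347). Genes of chromosome 11 had a median log2 fold change of 0.39, and none of the 7 genes lies there. The medians of the chromosomes that hold the 7 ran from -0.06 (chromosome 13) to 0.00 (chromosome 5).

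The comparison asked whether genes under 1 shared regulator differed from WT in the same direction, and the calls went in both directions. Fdft1 and Lss were higher in both clones, Sqle and Cyp51 were lower in both, Idi1 was slightly lower, and Hmgcs1 and Insig1 did not pass the test. By edgeR's quasi-likelihood test of the 4 mutant against the 2 WT libraries, with Benjamini-Hochberg adjustment over 14061 genes, 2 of the 7 were called higher at an adjusted p under 0.05 and 3 lower. The same test called 23.5% of all tested genes higher and 24.5% lower, and the counts among the 7 are to be read against these shares. None of the 7 passed 2-fold, against 8.93% of all tested genes. The median log2 fold change of the 7 was 0.09, beside -0.00 over all tested genes, and the median size of the change was 0.17 beside 0.23. In all, 6 of the 7 had all 4 mutant libraries on one side of both WT libraries, which held for 59.8% of all tested genes.

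**Figure D1:**
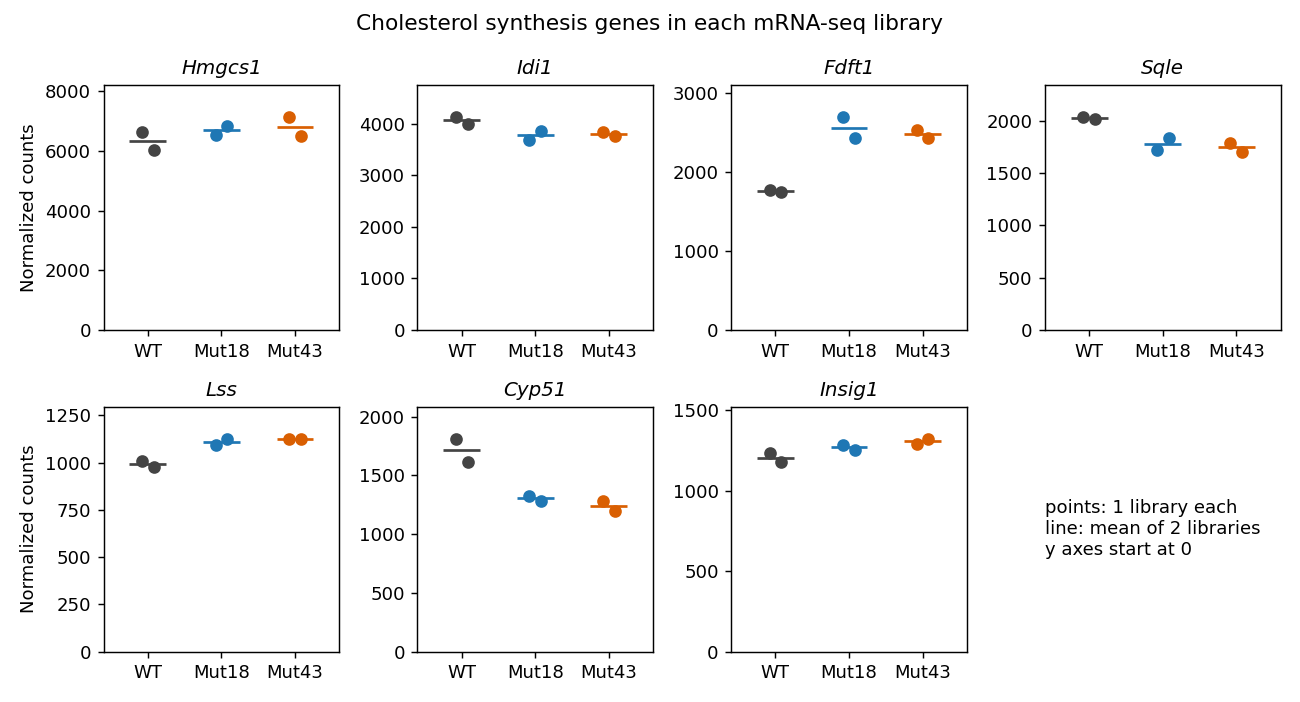
Normalized counts (TMM scaling, y axes from 0) of the 7 cholesterol synthesis genes in each mRNA-seq library, with 1 point per library and a line at the mean of the 2 libraries of each line. Fdft1 was near 1760 in WT and at 2430 to 2699 in the mutants, Cyp51 went the other way, and Hmgcs1 overlapped between WT and mutants.

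The mevalonate arm was represented by Hmgcs1 and Idi1. Hmgcs1 encodes the cytosolic HMG-CoA synthase, an early enzyme of the mevalonate arm. The normalized counts of the WT libraries were 6624 and 6031, those of Mut18 were 6542 and 6837, and those of Mut43 were 7137 and 6487. The 2 WT libraries lay 593 counts apart in a range that overlapped the mutants. The log2 fold change was 0.09 (95% CI -0.00 to 0.19, adjusted p = 0.0983), and it was 0.17 without WT replicate 1 (adjusted p = 0.0189) and 0.03 without WT replicate 2 (adjusted p = 0.659). Idi1 encodes isopentenyl-diphosphate isomerase, which interconverts the building blocks of all isoprenoids. WT stood at 4132 and 3996 normalized counts, Mut18 at 3692 and 3853, and Mut43 at 3834 and 3769. All 4 mutant libraries lay below both WT libraries, but by little. Idi1 fell by 0.10 on the log2 scale (95% CI -0.18 to -0.02, adjusted p = 0.0363), a change of -6.82%, beside a median of -0.06 for genes of chromosome 13. Its call was lost with any of 5 libraries left out, at adjusted p from 0.057 without Mut18 replicate 1 through 0.0572 and 0.0662 without Mut43 replicate 1 and 2 and 0.0784 without WT replicate 2 to 0.294 without WT replicate 1, in DESeq2 (adjusted p = 0.0525), and without a filter on low counts (log2 fold change -0.09, adjusted p = 0.0655).

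Fdft1 showed the largest difference of the 7. It encodes squalene synthase, which joins farnesyl diphosphate into squalene and so commits it to sterols. WT had 1767 and 1750 normalized counts, Mut18 had 2699 and 2430, and Mut43 had 2531 and 2430. Every mutant library was above both WT libraries, which differed by little. The mean rose from 1759 ± 11.8 (SD, n = 2) to 2523 ± 127 (SD, n = 4), a 1.43-fold increase (95% CI 1.34 to 1.54, log2 fold change 0.52, adjusted p = 2.15e-08). Exons of Fdft1 share 774 bp with Ctsb on the opposite strand. Whether reads were counted by strand is not given in the sources used here, so reads of that stretch cannot be told apart, and Ctsb itself had a log2 fold change of -0.11 (adjusted p = 0.121).

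Sqle, the next step, went the other way. It encodes squalene epoxidase, a rate-limiting enzyme of the sterol arm. WT had 2036 and 2015 normalized counts, Mut18 had 1719 and 1832, and Mut43 had 1788 and 1702. No mutant library reached the lower WT library. Sqle fell by 0.20 on the log2 scale (95% CI -0.29 to -0.11, adjusted p = 0.000629), a change of -13.1%. Lss, which encodes lanosterol synthase and closes the sterol rings, gave 1009 and 975 normalized counts for WT, 1095 and 1127 for Mut18, and 1124 and 1123 for Mut43. The mutant libraries lay close together and above both WT libraries. Lss rose 1.13-fold (95% CI 1.05 to 1.21, log2 fold change 0.17, adjusted p = 0.00475), and the call was lost without WT replicate 2 (log2 fold change 0.15, adjusted p = 0.059).

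Cyp51 fell most of the 7. It encodes the demethylase that takes a methyl group from lanosterol, the first trimming step toward cholesterol. WT had 1813 and 1614 normalized counts, Mut18 had 1322 and 1286, and Mut43 had 1278 and 1197. The gap between the WT libraries, 199 counts, was smaller than the gap of 293 between the lower WT library and the highest mutant library. The mean went from 1714 ± 141 (SD, n = 2) to 1271 ± 52.4 (SD, n = 4), which is 0.742-fold (95% CI 0.689 to 0.798, log2 fold change -0.43, adjusted p = 6.61e-07). Cyp51 shares 166 bp of exon with Akap9 on the opposite strand, and Akap9 had 997 and 938 normalized counts in WT and 643 to 753 in the mutants (log2 fold change -0.51). The part of those shared bases in the values of Cyp51 was not tested. Hmgcs1, Idi1 and Lss share 557, 323 and 381 bp of exon with genes on the opposite strand, of which 4930483K19Rik, beside Lss, had at most 4.01 normalized counts in any library.

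Insig1, the sterol sensor that restrains SREBP processing, was higher in every mutant library by little. WT reached 1233 and 1176 normalized counts, Mut18 1285 and 1250, and Mut43 1287 and 1322. All mutant libraries lay above both WT libraries, but by as little as 17 counts. The log2 fold change was 0.09 (95% CI -0.00 to 0.19, adjusted p = 0.0962). When TMM factors were computed without the genes of chromosome 11, the median of all genes moved to 0.02, Insig1 and Hmgcs1 were called higher (adjusted p = 0.0377 and 0.0386), Idi1 was no longer called (adjusted p = 0.11), and 4 of the 7 were higher and 2 lower, beside 3693 genes higher and 3194 lower over the whole table. With library totals in place of TMM, the median of all genes moved the other way, to -0.04, and Insig1 and Hmgcs1 each had a log2 fold change of 0.05 (adjusted p = 0.332 and 0.336). Fdft1, Lss, Sqle and Cyp51 kept their directions and calls under both scalings.

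**Figure D2:**
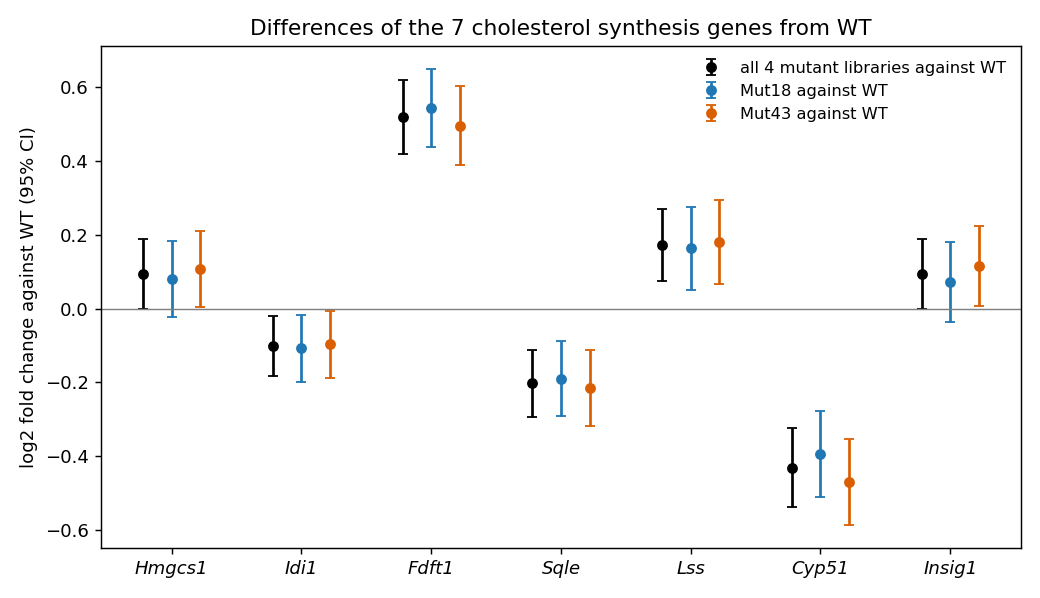
Log2 fold change against WT with its 95% confidence interval for the 7 genes, from the 4 mutant libraries together (black), Mut18 (blue) and Mut43 (orange), where 0 means no difference. Fdft1 stood near 0.5 and Cyp51 between -0.39 and -0.47 in every comparison, while the intervals of Hmgcs1 and Insig1 reached down to 0 or close to it.

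Each clone was also set against WT in a fit with the 3 lines as groups, and both comparisons share the 2 WT libraries. In Mut18, 2 of the 7 were called higher and 2 lower, where 20.3% of all tested genes were higher and 21% lower. In Mut43, 2 were called higher and 2 lower, where 22.9% and 23.9% of all tested genes were called. The calls were Fdft1 and Lss higher and Sqle and Cyp51 lower in each. In Mut18, the call of Lss was lost without Mut18 replicate 2 or WT replicate 2 (adjusted p = 0.122 and 0.105) and that of Sqle without Mut18 replicate 1 (0.0647), and in Mut43 that of Lss without WT replicate 2 or Mut43 replicate 2 (0.0613 and 0.0505). The call of Lss was also lost in DESeq2 in both clones (adjusted p = 0.114 in Mut18 and 0.0641 in Mut43), and in Mut18 with library totals (0.0579). Fdft1 had a log2 fold change of 0.54 in Mut18 and 0.50 in Mut43, Lss of 0.16 and 0.18, Sqle of -0.19 and -0.22, and Cyp51 of -0.39 and -0.47. Idi1 had -0.11 and -0.10 (adjusted p = 0.0533 and 0.0764), Hmgcs1 0.08 and 0.11, and Insig1 0.07 and 0.12. Between the clones, none of the 7 was called by edgeR or DESeq2 and none had an unadjusted p under 0.05 in edgeR, and 0.327% of all tested genes were called. The differences Mut43 minus Mut18 ran from -0.07 for Cyp51 (95% CI -0.20 to 0.05) to 0.04 for Insig1 (95% CI -0.07 to 0.15).

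Ratios between genes of 1 library do not depend on how libraries are scaled. The ratio of Fdft1 to Cyp51 normalized counts was 0.975 and 1.08 for WT, 2.04 and 1.89 for Mut18, and 1.98 and 2.03 for Mut43. The mean ratio was thus 1.93 times as high in the mutants as in WT. Fdft1 over Sqle, which are consecutive steps, went from 0.868 and 0.869 in WT to between 1.33 and 1.57 in the mutants. Lss over Sqle, the following pair, went from 0.484 and 0.495 to between 0.615 and 0.66, and the mean of Lss over Cyp51 from 0.58 to 0.881. These ratios were chosen after the fold changes were known and are given as descriptions. The 7 genes together held 18614 and 17558 normalized counts in WT and 18032 to 18980 in the mutants, so their sum overlapped between the groups while its make-up differed.

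In RPKM (reads per kilobase of coding-transcript exon, scaled for depth), on which levels of different genes can be compared, Hmgcs1 was highest in WT at 115 ± 7.63 (SD, n = 2), followed by Idi1 at 87.4 ± 2.07 and Sqle at 48.8 ± 0.351. Fdft1 at 31.6 ± 0.213, Insig1 at 29.7 ± 0.993 and Cyp51 at 28.9 ± 2.38 followed, and Lss was lowest at 13.4 ± 0.319. Insig1 and Cyp51 did not differ beyond the spread between libraries in WT. In the mutants the order was Hmgcs1 at 123 ± 5.45 (SD, n = 4), Idi1 at 81.4 ± 1.57, Fdft1 at 45.3 ± 2.28, Sqle at 42.4 ± 1.46, Insig1 at 31.7 ± 0.725, Cyp51 at 21.5 ± 0.885 and Lss at 15.1 ± 0.2. Fdft1 thus stood above Sqle in the mutant means and below it in WT, and their ranges of 43.6 to 48.5 and 41 to 44.1 overlapped in the mutants. In WT, Hmgcs1 was at the 96.2nd percentile of tested genes and Lss at the 67.2nd.

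The rest of the pathway was read from lists, each to be read against the 23.5% of all tested genes called higher and the 24.5% called lower. Of 7 genes of the mevalonate arm, 1 was called higher, 1 lower and 5 not. The gene that was higher was Fdps, which makes farnesyl diphosphate. It had 1487 and 1659 in WT and 1800 to 1929 in the mutants (log2 fold change 0.24, adjusted p = 0.000347). Idi1 was the gene that was lower. Acat2, Mvk, Pmvk, Mvd and Hmgcs1 did not pass, with log2 fold changes from -0.02 to 0.16. Of 12 genes of the sterol arm, 4 were called higher, 3 lower and 5 not, and the median log2 fold change was 0.02, beside -0.00 over all tested genes. Beside Fdft1 and Lss, Tm7sf2, a sterol reductase acting after Cyp51, rose by 0.41 on the log2 scale from 80 and 89 normalized counts to between 109 and 115, and Dhcr7, the last reductase of one branch, rose by 0.14. Beside Sqle and Cyp51, Sc5d, a desaturase late in the arm, had 621 and 558 normalized counts in WT and 457 to 497 in the mutants and fell by 0.31 on the log2 scale. Lbr, Msmo1, Nsdhl, Hsd17b7 and Ebp did not pass, with log2 fold changes from -0.15 to 0.10.

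**Figure D3:**
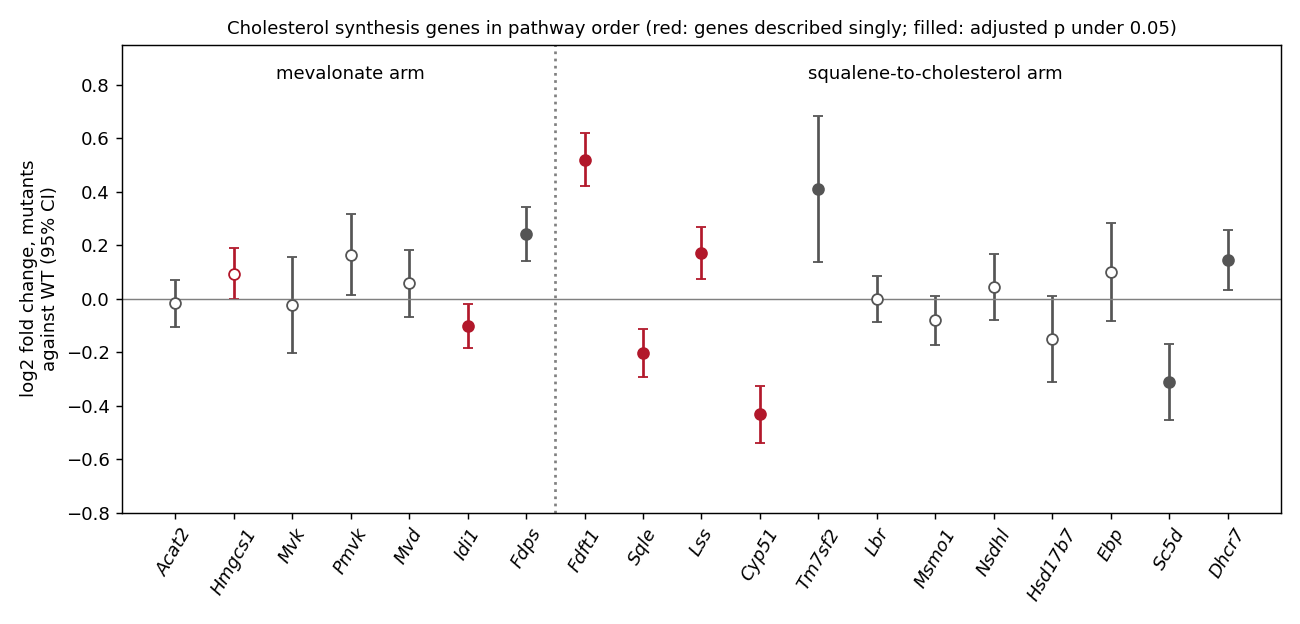
Log2 fold change of the 4 mutant against the 2 WT libraries, with 95% confidence interval, for 7 genes of the mevalonate arm and 12 of the sterol arm, placed roughly in the order in which their enzymes act, with 6 of the 7 described genes in red (Insig1 is no enzyme and is not plotted) and filled points at an adjusted p under 0.05. Filled points lay on both sides of 0 in both arms, and Fdft1, Sqle, Lss and Cyp51 alternated in sign.

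The SREBP machinery counted 7 genes, of which 3 were called higher and 4 not, where 23.5% of all tested genes were higher. Srebf2, which encodes SREBP2, had 2021 and 2015 normalized counts in WT and 1947 to 2104 in the mutants (log2 fold change -0.00, 95% CI -0.09 to 0.09). Srebf1, on chromosome 11, had 897 and 909 in WT and 1170 to 1272 in the mutants (log2 fold change 0.44, adjusted p = 2.56e-07), beside the median of 0.39 for its chromosome. Mbtps1 and Mbtps2, the proteases that release SREBP, rose by 0.10 and 0.17. Scap, the escort, had a log2 fold change of -0.16 (adjusted p = 0.0545), and Insig2, a relative of Insig1, of -0.12 (adjusted p = 0.232).

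Uptake and trafficking counted 8 genes, 3 higher and 5 not called, against 23.5% higher over all tested genes. Tmem97 and Npc1l1, both on chromosome 11, rose by 0.54 and 1.12, the latter from 7 and 5 normalized counts to between 11 and 16. Npc1, which exports cholesterol from lysosomes, rose by 0.34. Of 6 tested genes of efflux and storage, 1 was higher and 4 lower, against 23.5% and 24.5% over all tested genes. Soat1, which esterifies cholesterol for storage, had 952 and 880 normalized counts in WT and 501 to 559 in the mutants and fell by 0.79 on the log2 scale (adjusted p = 2.50e-09). Apoe, a lipoprotein component, fell by 0.45, Abca1, a cholesterol exporter, by 0.30, and Nr1h3, the sterol-sensing receptor LXRα, by 1.47 from 21 and 17 counts to between 3 and 12. In edgeR's fit with the 3 lines as groups, Nr1h3 was called lower in Mut43 (-2.38, adjusted p = 0.000454). It was not called in Mut18 (-0.91, adjusted p = 0.078), and the clones were not called apart (adjusted p = 0.447). Abcg1, another exporter, rose by 0.51. Apoe and Abca1 are also expressed by fibroblasts, whose markers were lower in the mutants as given above, and the part of such RNA was not tested. The 7 genes of cholesterol synthesis are used by every cell type, and the part of feeder RNA in their values was not tested either. Without WT replicate 1, the library with the most fibroblast marker RNA, 3 of the 7 were called higher and 2 lower, and 2580 and 2626 genes over the whole table.

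The branch from farnesyl diphosphate to other isoprenoids counted 10 genes, 2 higher (Fnta and Fntb, the subunits of protein farnesyltransferase, by 0.23 and 0.16) and 3 lower, where all tested genes gave 23.5% and 24.5%. Dhdds and Pdss2, which make long isoprenoid chains, fell by 0.40 and 0.61, and Pggt1b, a subunit of a related prenyltransferase, by 0.27. Of 10 fatty acid synthesis genes that SREBP1 is known to drive, 4 were higher and 6 not called, beside 23.5% of all tested genes and 67.1% of those on chromosome 11 called higher. Acaca, Acly and Fasn rose by 0.32, 0.51 and 0.35 and all lie on chromosome 11, and Elovl6 on chromosome 3 rose by 0.16. Scd1 had 2934 normalized counts in WT replicate 1 and 1360 in WT replicate 2, a wider gap than in any of the 7 genes described here, and 1647 to 1883 in the mutants.

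Open chromatin was compared through the ATAC-seq peak lists, which held 63588 to 78536 peaks each on chromosomes 1 to 19, X and Y. A peak lay within 1000 bp of a start site of all 7 genes in all 6 libraries, and this held for 87.6% of 13415 tested genes. The fold enrichment of these peaks over the caller's background is set within each library, so it is given with its percentile in its own list, and the lists differ in length. At Fdft1 it was 10 and 11.5 for WT, 11.6 and 11.8 for Mut18, and 11.8 and 13.3 for Mut43, at the 84.9th to 95.2nd percentile. All mutant values lay above both WT values, the lowest by a small margin. At Cyp51 it was 7.97 and 9.55 in WT and 8.47 to 8.74 in the mutants, at the 62.1st to 72.1st percentile. The WT values lay on either side of those of the mutants, so the gene that fell most showed no separation in the fold enrichment of this peak. Its -log10 q, the caller's significance, was 46.45 and 46.52 in WT and 34.4 to 38.3 in the mutants. Insig1 was also lower on that measure, at 55.5 and 48.1 against 38.9 to 41.5, and the other genes overlapped. The share of all tested genes that separate by -log10 q was not computed. At Lss it was 12.8 and 12.5 in WT and 12.9 to 14.8 in the mutants, and at Sqle 9.24 and 11.1 in WT and 10.7 to 11.9 in the mutants. Hmgcs1, Idi1 and Insig1 had overlapping fold enrichments of 11.5 to 14, 11 to 13 and 8.58 to 9.53. The percentiles ran from 91.8 to 96.9 for Hmgcs1, 86.2 to 94.6 for Idi1 and 79.1 to 91 for Sqle. By fold enrichment, Fdft1 and Lss were the 2 genes whose peak was higher in all 4 mutant libraries than in both WT libraries. This held for 18% of the 11748 tested genes with such a peak in every library, while 3.87% were lower. By percentile, Fdft1 alone was higher, and Insig1 was lower, at 72.8 and 72 in WT and 64.8 to 69.4 in the mutants. Lss overlapped by percentile, at 96.5 and 92.4 in WT and 95 to 98.1 in the mutants. On that scale 14.4% of those tested genes were higher and 10.4% lower.

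**Figure D4:**
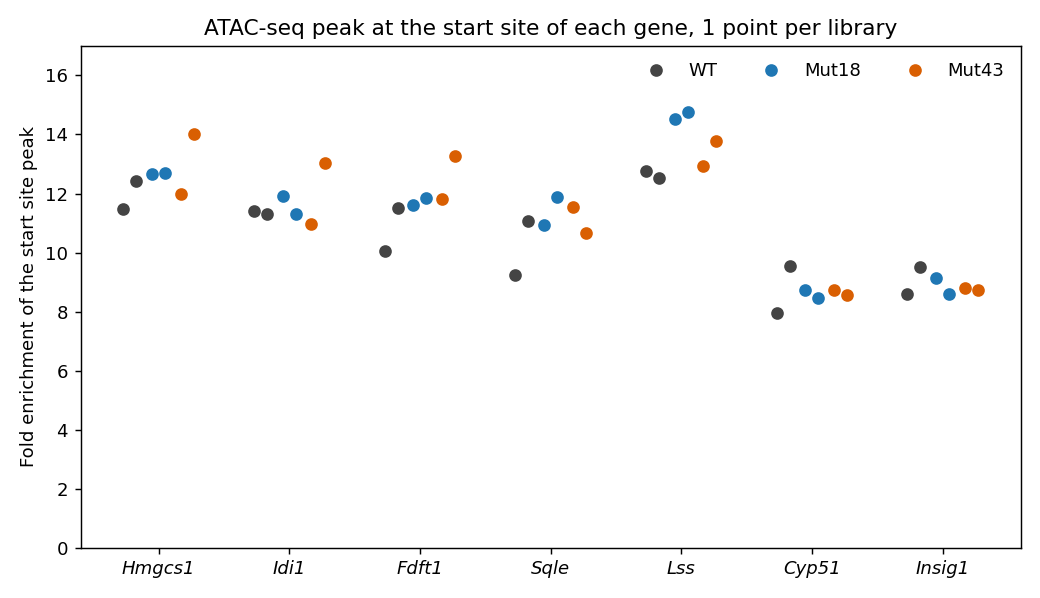
Fold enrichment over background (axis from 0) of the highest ATAC-seq peak within 1000 bp of a start site of each of the 7 genes, with 1 point per library in grey for WT, blue for Mut18 and orange for Mut43. Every gene had a peak in all 6 libraries, and WT and mutant values overlapped for Hmgcs1, Idi1, Sqle, Cyp51 and Insig1.

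Within 50 kb of the start sites lay 37 regions, made by merging peaks that overlapped by at least 1 bp. A peak was present in all 6 libraries in 25 of them, or 67.6%, beside 54.7% of all 89596 regions. None was present in both WT libraries and in no mutant library, as 3.25% of all regions were, and none in all 4 mutant libraries and no WT library, as 0.733% were. The other 12 were found in 1 to 4 libraries in mixed patterns. All 4 regions around Fdft1 and 2 of the 3 around Cyp51 were shared by all libraries. The strongest region near these genes lay 27960 bp downstream of the Insig1 start (chr5:28099181-28099466), with a fold enrichment of 17.2 and 19.3 in WT and 19.9 to 20.3 in the mutants.

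Genes whose level followed the mean profile of the 7 most closely were sought among 11069 tested genes whose mean level reached 50 normalized counts. The mean profile itself spanned only -0.05 to 0.03 on the log2 scale, since higher and lower members cancelled. The 7 genes did not share it. The r of each with the mean of the other members was 0.74 for Hmgcs1, 0.15 for Insig1 and 0.04 for Lss. It was -0.32 for Idi1, -0.59 for Sqle, -0.71 for Fdft1 and -0.77 for Cyp51. With a mean of all 7 so flat, a gene with a large change has a negative r by arithmetic, so these values do not show how pairs relate. Among pairs, r was 0.92 for Fdft1 and Lss, 0.95 for Idi1 and Sqle, and 0.93 for Sqle and Cyp51. It was -0.90 for Fdft1 and Cyp51. The closest were Gopc (Pearson r = 0.97), Pign (r = 0.96), Tmem120a (r = 0.96), Rell1 (r = 0.96) and Fam173a (r = 0.95) over 6 libraries, which are the highest of those 11069 values and are given as a description.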

How the data were processed

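The mRNA-seq table that the authors deposited holds raw counts of reads per gene from paired-end libraries aligned to mm10 joined to the Drosophila genome. The submitters' processing notes name STAR and DESeq2, and for ATAC-seq Bowtie2 2.3.4.2 and MACS2, and the counting program and its use of strand are not given in the sources used here. For ATAC-seq, the authors deposited peaks called per library, each with a -log10 q and a fold enrichment over background, the former above 6 in every list. Neither has a depth in the lists, and duplicate handling and read shift are not given in the sources used here.

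Counts were filtered with edgeR 4.0.16 (minimum count 10, minimum total 15), scaled by TMM and tested by its quasi-likelihood F-test in R 4.3.3, with Benjamini-Hochberg adjustment over all 14061 genes kept. Normalized counts are counts scaled by TMM to the mean library. Confidence intervals are at 95%. The fit was tested on simulated counts. Of the symbols in the table, 15618 matched GENCODE directly, 475 through RefSeq synonyms, and 170 were not placed. The alternatives were DESeq2 1.42.0, other scalings and filters, a 2-fold threshold, a replicate block, each library left out in turn, and other windows and peak thresholds. Genes named are the 7, the pathway lists, genes of other lists past 2-fold, H3f3a and H3f3b, and the 5 genes closest in profile. Other named genes (Lum, Gata4, Scd1, the ESC markers Pou5f1, Nanog, Sox2 and Zfp42, and the overlapping genes) were picked with their values known. The members and lists were chosen with earlier results of these data known. Some genes of the lists are not reported here.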

Additional observations from a re-analysis of the deposited data

Results flagged for a closer look

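In the 4 mutant libraries Lss had 1095, 1127, 1124 and 1123 normalized counts, and the lowest, Mut18 replicate 1, stood apart by 0.891 of the whole range, above the 95% critical value of Dixon's test for 4 values. The range itself was 31.4 counts wide, and the other 6 genes stayed below that critical value. Chance marks about 1 group in 20 in this way.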

How the results depend on the processing

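WT rests on 2 libraries, and differences as small as those of Idi1, Hmgcs1 and Insig1 depended on the setting. Peak lists carry no read numbers. Fdft1, Sqle and Cyp51 kept direction and call in the mutants together under every alternative except the 2-fold threshold. At that threshold 0 of the 7 were called higher and 0 lower in the mutants together or in either clone. That threshold left 461 genes higher and 794 lower in the mutants together, 392 and 666 in Mut18, 491 and 957 in Mut43, and 1 and 0 between the clones. With TMM factors from outside chromosome 11, 4 of the 7 were higher in the mutants together and in Mut43, beside 3693 and 3576 of all genes. In Mut18, 1 was higher with library totals and 1 in DESeq2, and DESeq2 called 1 higher in Mut43. DESeq2 called 1749 genes lower in Mut18 and 2189 in Mut43, against 2957 and 3363 by edgeR. Between the clones, 9 genes were higher and 37 lower in Mut43 by edgeR, 18 lower in DESeq2, and 5 higher and 19 lower without a filter. With 1 library left out, members called ranged from 1 to 3 higher and 2 to 3 lower in the mutants together, 1 to 3 higher and 1 to 3 lower in Mut18, and 1 to 3 higher and 2 to 2 lower in Mut43, and genes between the clones from 2 to 13 higher and 6 to 57 lower in Mut43. Where that left a line with 1 library, it was assumed to vary like the others. The cause was not tested. The differences Mut43 minus Mut18, none of them called, changed sign for Hmgcs1 (-0.0438 to 0.0937 with 1 library left out, main value 0.03), Idi1 (-0.019 to 0.0429, main value 0.01, and -0.0035 with library totals), Fdft1 (-0.1214 to 0.0302), Sqle (-0.0699 to 0.022) and Lss (-0.0034 to 0.0377).

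Same-numbered libraries of the 3 lines did not deviate together (r = -0.01, 0.02 and 0.00), so the numbers were not taken as pairs. With the replicate block, genes called in the mutants together went from 3308 to 3221 higher and from 3441 to 3383 lower, and among the 7 only Idi1 lost its call (adjusted p = 0.0571).

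All 7 genes kept a peak in every library with windows of 500 and 2000 bp, with a -log10 q of at least 10, with equal numbers of peaks, with the summit inside the window and with any library left out.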
